A study of Homo sapiens with 43 samples.

Results

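GM12878 cells that received the BAF inhibitor BRM014 and then dexamethasone (Dex) for 1 h were set against GM12878 cells that received DMSO and then Dex for 1 h. The comparison was taken from the sample titles, which give 2 libraries for each group, so that it holds 4 of the 43 libraries of the series. GM12878 is a lymphoblastoid line: B cells grown out by infection with Epstein-Barr virus. In the BRM014+Dex group, cells were given 10 µM BRM014 30 min before 500 nM Dex, and RNA was collected 1 h after Dex was added. The DMSO+Dex group was given the DMSO solvent for the same 30 min and then the same 500 nM Dex, so both groups carry the stimulus and differ in the inhibitor. The same experiment holds BRM014+Veh and DMSO+Veh groups (vehicle for 1 h), BRM014+IFNg and DMSO+IFNg groups (100 ng/mL interferon gamma for 1 h) and groups of all 6 kinds at 6 h, 12 groups and 24 libraries in all. The whole experiment rests on 1 cell line and 1 inhibitor at 1 dose, and no label states whether replicates were cultured separately, so the p-values measure the spread between libraries, which may be technical.

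BAF, the mammalian SWI/SNF complex, uses the energy of ATP to move and evict nucleosomes, and SMARCA4 and SMARCA2 are its alternative ATPase subunits. BRM014 blocks the ATPase activity of both. Dexamethasone binds the glucocorticoid receptor, the product of NR3C1, which enters the nucleus, binds glucocorticoid response elements and raises or lowers transcription within the first hour. In lymphoid cells the receptor is known for raising anti-inflammatory and pro-apoptotic genes and for restraining inflammatory ones.

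The 4 libraries held 16.0 and 18.4 M estimated counts in BRM014+Dex cells, and 16.2 and 17.6 M in DMSO+Dex cells. The test ran across all 24 libraries and 15183 genes (edgeR's quasi-likelihood test), and a gene is said to have risen or fallen where its p, adjusted over those genes by Benjamini and Hochberg's method, was under 0.05. Values are counts scaled by TMM to a common library size (CPM), and log2 fold changes are given ± their standard error. The marker sums that follow, and the value of TRAC, were scaled by the library total alone, without TMM. The 7 B cell markers summed to 1879 to 1887 CPM in BRM014+Dex cells and to 1935 to 1969.5 CPM in DMSO+Dex cells, and none of them passed the test by edgeR (0 also at an unadjusted p under 0.05, and 0 by DESeq2). Of the 11 liver markers 7 were at 0 in all 4 libraries, and of the 10 myeloid markers 6 were. The T and NK cell list summed to 67.8 to 72.1 CPM in BRM014+Dex cells and to 79.4 to 79.5 CPM in DMSO+Dex cells, nearly all of it TRAC (64.7 CPM on average), while CD3G and CD3D were at 0. Its part in the results was not tested.

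The genes of the targets and of the receptor were at near-equal levels in both groups. SMARCA4 was at 227 and 229 CPM in BRM014+Dex cells, against 237 and 235 CPM in DMSO+Dex cells (log2 fold change -0.05 ± 0.0520, adjusted p = 0.831). SMARCA2 was at 659 and 691 CPM in BRM014+Dex cells, against 689 and 707 CPM in DMSO+Dex cells (-0.05 ± 0.0451, adjusted p = 0.825). The receptor gene NR3C1 was at 161 and 177 CPM in BRM014+Dex cells and at 182 and 181 CPM in DMSO+Dex cells (-0.10 ± 0.0607, adjusted p = 0.627). BRM014 acts on the protein, so the level of these transcripts does not check the treatment. None of the 27 tested BAF subunit genes passed the test by edgeR, 1 did so at an unadjusted p under 0.05, and DESeq2 called 0.

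BRM014 raised 88 genes and lowered 202 in Dex cells at 1 h, 0.580% and 1.33% of the 15183 genes tested. The 290 genes are 1.91% of those tested, and 1516 genes had an unadjusted p under 0.05. Changes were mostly under 2-fold: 11 of the genes that rose and 25 of those that fell passed a fold of 2, and the median size of a called change was 0.51 on the log2 scale. The median over all genes tested was -0.01. Each of the 290 genes had both BRM014+Dex libraries on the same side of both DMSO+Dex libraries, as did 39.6% of all genes tested. The counts rest on both replicates: leaving out DMSO+Dex replicate 1, DMSO+Dex replicate 2, BRM014+Dex replicate 1 or BRM014+Dex replicate 2 left 42, 39, 58 and 44 genes higher and 113, 112, 116 and 125 lower. In these fits the group with 1 library is assumed to vary like the other groups. Of the genes called, 25 that rose and 72 that fell were called in each of these 4 fits. Dex itself raised 27 genes and lowered 15 in BRM014 cells (0.178% and 0.0988%, or 0.277% together), and raised 55 and lowered 37 in DMSO cells (0.362% and 0.244%, or 0.606% together). Replicates differed more with BRM014, with a chi-square per degree of freedom of 4.99 (Dex) and 5.00 (vehicle). With DMSO it was 2.55 and 2.52 in the same order. The part of this spread in the counts of Dex itself was not tested, nor were those counts refitted without single libraries.

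**Figure D1:**
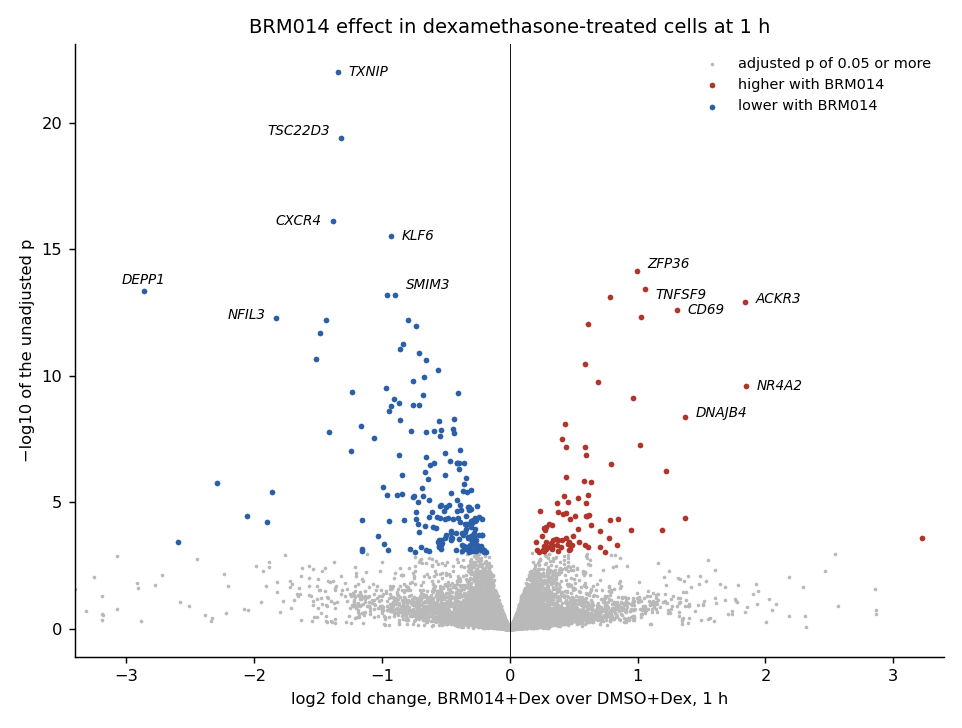
Log2 fold change of BRM014+Dex over DMSO+Dex at 1 h (horizontal axis) against the negative log10 of the unadjusted p (vertical axis) for the genes tested, 1 point a gene: red for the 88 genes higher with BRM014, blue for the 202 lower, grey for the rest, with 36 genes beyond the horizontal range, 3 of them called lower, not drawn. TXNIP, TSC22D3 and CXCR4 have the smallest p among the falls, and ZFP36 the smallest among the rises.

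TSC22D3 and NFIL3, the marker genes of the Dex response, fell with BRM014 in Dex cells, while their effects in vehicle cells did not pass the test. TSC22D3 (ENSG00000157514.16, hg38, chrX:107713221-107777342, minus strand) encodes GILZ, an anti-inflammatory protein induced by glucocorticoids. It was at 108 and 104 CPM in BRM014+Dex cells, against 272 and 257 CPM in DMSO+Dex cells (-1.32 ± 0.0599, adjusted p = 3.09e-16). Both inhibited libraries were far below both DMSO libraries, at 40.0% of their level by the fitted fold. In vehicle cells TSC22D3 was at 37.4 and 42.0 CPM with BRM014, against 36.2 and 32.5 CPM with DMSO (0.21 ± 0.0744, adjusted p = 0.201). Dex thus raised TSC22D3 by 1.41 ± 0.0675 on the log2 scale in BRM014 cells and by 2.95 ± 0.0670 in DMSO cells, and the difference of -1.53 ± 0.0953 passed the test of the difference itself (adjusted p = 3.88e-12). In a bulk library, fewer responding cells and less RNA per responding cell cannot be told apart.

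NFIL3 (ENSG00000165030.3, hg38, chr9:91409045-91423832, minus strand) encodes a basic leucine zipper repressor that glucocorticoids induce in lymphoid cells. It was at 4.49 and 3.94 CPM in BRM014+Dex cells, against 15.1 and 14.8 CPM in DMSO+Dex cells (-1.83 ± 0.152, adjusted p = 5.85e-10). The inhibited Dex libraries lay close to the vehicle libraries, where NFIL3 was at 3.32 and 3.56 CPM with BRM014 and at 3.50 and 4.27 CPM with DMSO. The effect of Dex on NFIL3 was 0.29 ± 0.181 in BRM014 cells, which did not pass the test (adjusted p = 0.999), and 1.94 ± 0.153 in DMSO cells (adjusted p = 1.66e-10). Between Dex and vehicle cells the effect of BRM014 on NFIL3 differed by -1.65 ± 0.239 (adjusted p = 6.04e-04).

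**Figure D2:**
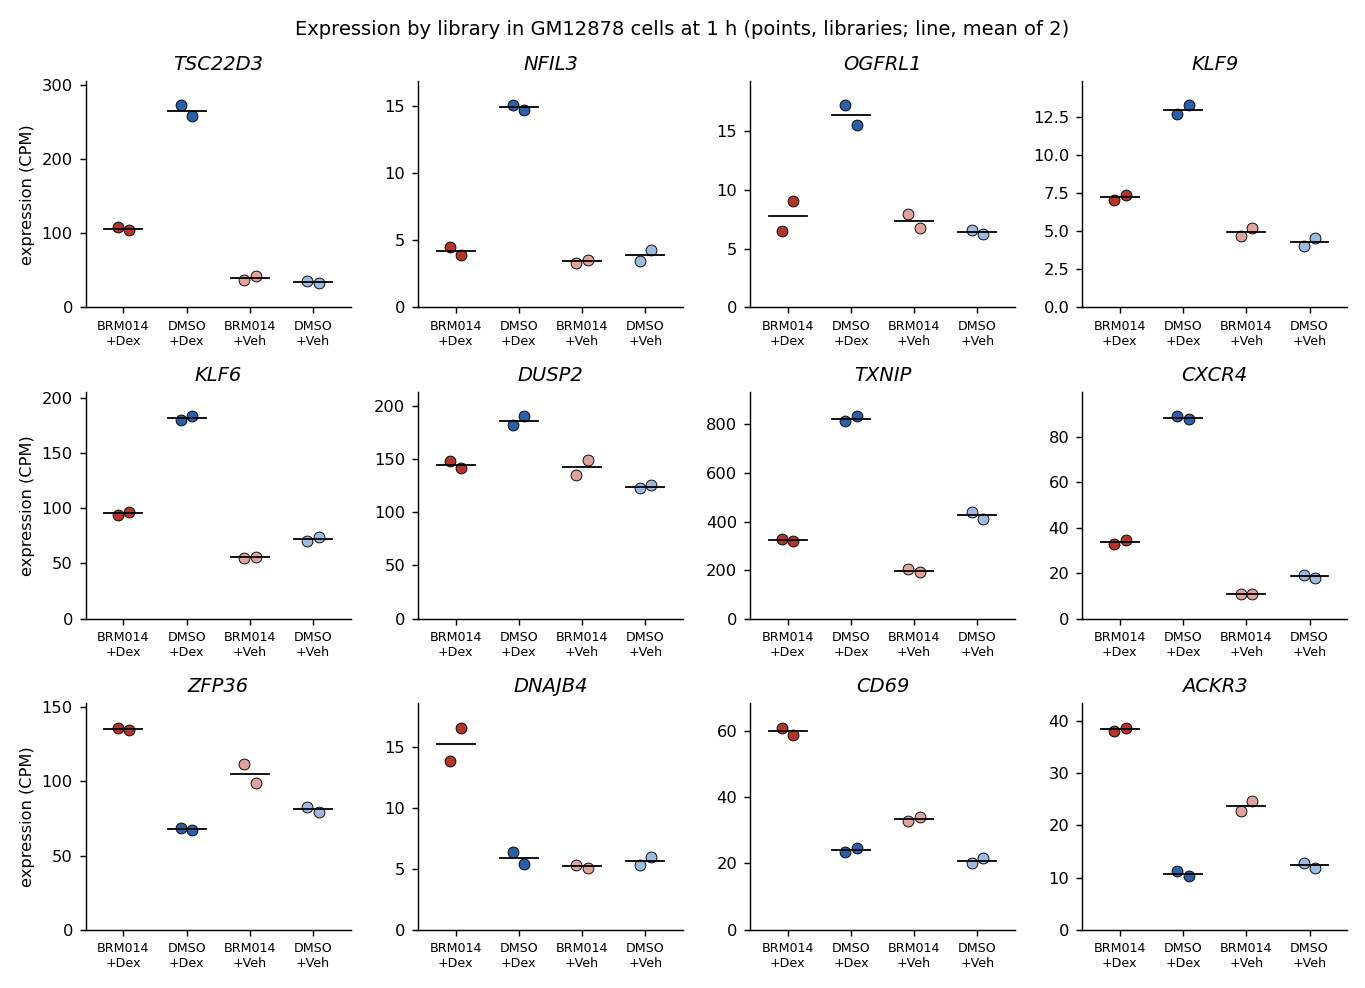
Expression in CPM (vertical axes, each from 0) of 12 genes in the 8 libraries of Dex and vehicle cells at 1 h, with BRM014 left of DMSO in each pair, where points are libraries and lines the mean of 2. TSC22D3, NFIL3, OGFRL1 and KLF9 are high in DMSO+Dex cells and lower in BRM014+Dex cells, ZFP36 and DNAJB4 are highest in BRM014+Dex cells, and TXNIP is lower with BRM014 both with and without Dex.

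The effect of BRM014 differed between Dex and vehicle cells for 18 genes (0.119% of those tested), 12 of them lower (0.0790%) and 6 higher (0.0395%) in the difference of Dex cells minus vehicle cells. At an unadjusted p under 0.05 there were 544 of the 15183 genes tested. That is fewer than the share of 0.05 that would pass with no difference in any gene. This difference equals the effect of Dex in BRM014 cells minus that in DMSO cells. The count depends on single libraries: it was 8 and 10 without DMSO+Dex replicate 1 and 2, 10 and 9 without DMSO+Veh replicate 1 and 2, and 9 without BRM014+Veh replicate 1. The calls of TSC22D3, NFIL3, KLF6, DUSP2, ZFP36L2 and ZFP36 were made in each of the 13 alternative fits, 8 of which left out 1 library, and those of the other 12 genes were not.

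KLF6, a zinc finger transcription factor, was at 94.2 and 96.8 CPM in BRM014+Dex cells, against 180.4 and 183 CPM in DMSO+Dex cells (-0.93 ± 0.0580, adjusted p = 1.12e-12). Its fall in vehicle cells was smaller, with 55.1 and 56.1 CPM with BRM014 and 70.3 and 73.9 CPM with DMSO, and the effects differed by -0.55 ± 0.0858 (adjusted p = 0.00155). DUSP2, a phosphatase that acts on ERK, was at 148 and 141 CPM in BRM014+Dex cells and at 182 and 189.8 CPM in DMSO+Dex cells. In vehicle cells the order of the DUSP2 groups was turned round, with 135 and 149 CPM with BRM014 and 123 and 125 CPM with DMSO, although that effect of 0.20 ± 0.0655 did not pass the test (adjusted p = 0.166). For DUSP2 the effects differed by -0.56 ± 0.0918 (adjusted p = 0.00266).

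ZFP36L2 and ZFP36, 2 related proteins that promote decay of AU-rich mRNAs, stood on opposite sides. ZFP36L2 was at 228 and 239 CPM in BRM014+Dex cells and at 201 and 188 CPM in DMSO+Dex cells, a small rise (0.27 ± 0.0598, adjusted p = 0.00922) that was lost without DMSO+Dex replicate 2 (adjusted p = 0.240) or BRM014+Dex replicate 2 (adjusted p = 0.137). In vehicle cells BRM014 raised ZFP36L2 more, to 135 and 125 CPM, against 70.4 and 69.6 CPM with DMSO, and the effects differed by -0.63 ± 0.0882 (adjusted p = 4.68e-04). ZFP36 was at 136 and 135 CPM in BRM014+Dex cells, against 68.7 and 67.3 CPM in DMSO+Dex cells (0.99 ± 0.0699, adjusted p = 2.18e-11). Its rise in vehicle cells was smaller, with 111 and 98.9 CPM with BRM014 and 82.9 and 79.2 CPM with DMSO, so that the effects differed by 0.62 ± 0.0985 (adjusted p = 0.00195). Both BRM014+Dex libraries of ZFP36 were above every other 1 h library of Dex and vehicle cells.

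The remaining 7 genes with a lower difference were less firmly called. OGFRL1 was at 6.48 and 9.04 CPM in BRM014+Dex cells, against 17.2 and 15.6 CPM in DMSO+Dex cells (-1.06 ± 0.140, adjusted p = 7.57e-06), with a difference to vehicle cells of -1.25 ± 0.219. KLF9, a transcription factor gene known as a direct target of the receptor, was at 7.06 and 7.43 CPM in BRM014+Dex cells and at 12.7 and 13.3 CPM in DMSO+Dex cells (-0.84 ± 0.136, adjusted p = 1.58e-04), with a difference of -1.05 ± 0.213. In the vehicle libraries OGFRL1 was at 6.29 to 7.92 CPM and KLF9 at 4.06 to 5.22 CPM. The difference of KLF9 was called in 0 of the 8 fits that left out 1 library. DESeq2 did not call it (adjusted p = 0.210), nor did edgeR in a fit of only the groups compared (adjusted p = 0.0608). SMIM3, which encodes a small membrane protein, was at 65.5 and 63.1 CPM in BRM014+Dex cells, against 124 and 116 CPM in DMSO+Dex cells (-0.90 ± 0.0684, adjusted p = 1.09e-10). It also fell in vehicle cells, by less (-0.33 ± 0.0718), with a difference of -0.57 ± 0.0992. FBXW7, the substrate receptor of a ubiquitin ligase, fell by 0.44 on the log2 scale, SERTAD2 by 0.39 and the arrestin-domain gene ARRDC3 by 0.96, each with an adjusted p in vehicle cells of 0.643 or more. For the circadian gene PER1, at 38.7 and 33.7 CPM in BRM014+Dex cells and at 47.6 and 36.9 CPM in DMSO+Dex cells, the libraries overlapped and the effect in Dex cells did not pass the test (-0.22 ± 0.0916, adjusted p = 0.340). The adjusted p of these 7 differences lay between 0.00553 and 0.0416, and without 1 library it reached 0.127 for OGFRL1 (BRM014+Veh replicate 1), 0.267 for KLF9 (BRM014+Veh replicate 2), 0.129 for SMIM3 (DMSO+Veh replicate 1), 0.453 for FBXW7 (BRM014+Veh replicate 1), 0.127 for SERTAD2 (BRM014+Veh replicate 1), 0.214 for ARRDC3 (BRM014+Dex replicate 2) and 0.984 for PER1 (DMSO+Dex replicate 1).

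On the higher side, DNAJB4, which encodes a co-chaperone of the heat shock protein family, had a higher level with BRM014 and Dex combined than in the other 3 groups of Dex and vehicle cells. It was at 13.9 and 16.6 CPM in BRM014+Dex cells, against 6.41 and 5.43 CPM in DMSO+Dex cells (1.37 ± 0.168, adjusted p = 1.48e-06). With vehicle it was at 5.37 and 5.10 CPM with BRM014 and at 5.35 and 6.00 CPM with DMSO (-0.12 ± 0.191, adjusted p = 0.961). The effects differed by 1.49 ± 0.255 (adjusted p = 0.00460, and 0.0587 without DMSO+Veh replicate 2). SOX9, a transcription factor gene, was at 43.9 and 48.8 CPM in BRM014+Dex cells and at 24.1 and 21.5 CPM in DMSO+Dex cells, and GADD45B, a stress response gene, at 109.9 and 103 CPM and at 61.0 and 62.5 CPM in the same order of groups. EGR2, a transcription factor gene that Dex lowered in both arms, was at 36.3 and 32.4 CPM in BRM014+Dex cells and at 23.7 and 22.1 CPM in DMSO+Dex cells. GPR183, a receptor that guides B cell migration, was at 55.8 and 56.0 CPM in BRM014+Dex cells and at 50.9 and 51.2 CPM in DMSO+Dex cells, an effect that did not pass the test (0.13 ± 0.0820, adjusted p = 0.659). The differences to vehicle cells of SOX9, GADD45B, EGR2 and GPR183 had adjusted p of 0.0199, 0.0199, 0.0401 and 0.0420, and without 1 library these reached 0.327 (DMSO+Dex replicate 2), 0.247 (DMSO+Veh replicate 2), 0.409 (BRM014+Dex replicate 1) and 0.691 (DMSO+Veh replicate 2).

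**Figure D3:**
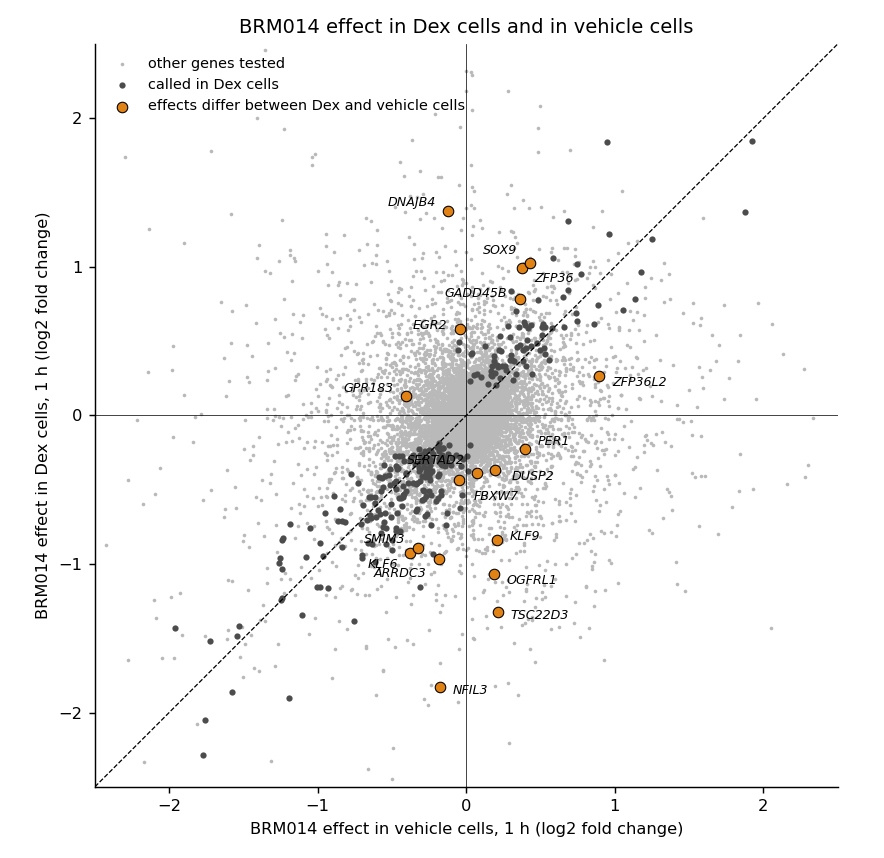
Effect of BRM014 in Dex cells at 1 h (vertical axis) against its effect in vehicle cells at 1 h (horizontal axis), both as log2 fold change over DMSO, 1 point a gene, with a dashed line at equal effects, orange for the 18 genes whose effects differed, dark grey for other genes called in Dex cells, and genes beyond 2.5 on either axis not drawn. NFIL3, TSC22D3, OGFRL1 and KLF9 lie far below the line near 0 on the horizontal axis, and DNAJB4 lies far above it.

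To show where letters of a response element lie near these genes, the motif AGNACANNNTGTNCT, a form of the glucocorticoid response element, was searched on both strands within 20 kb of each gene start in hg38. It is its own reverse complement, so each match counts once. The gene start is the 5′ end of the whole annotated gene, and starts of single transcripts within a gene were not searched. Of the 12 genes with a lower difference 2 held a match, TSC22D3 and SMIM3, and of the 6 with a higher difference 0 did, beside 836 of the 15075 tested genes with a position (5.55%). The match of TSC22D3 lies in an intron, 9491 bases downstream of the gene start at chrX:107767844-107767858 (minus strand), and that of SMIM3 in an intron, 1612 bases downstream at chr5:150780362-150780376 (plus strand). They are shown 5′ to 3′ on the strand of the gene with 10 flanking bases, the motif in capitals:
TSC22D3: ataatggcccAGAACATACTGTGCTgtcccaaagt
SMIM3: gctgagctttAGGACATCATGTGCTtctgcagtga
Among the genes that fell 14 of 202 held the motif (6.93%), and among those that rose 4 of 88 (4.55%). The search was chosen after the values were seen, and a match is a description of the letters, not of binding.

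Across a list of 31 tested genes known to be induced by glucocorticoids, 13 fell (41.9%) and 2 rose (6.45%), beside 1.33% and 0.580% of all genes. The median of the 31 was -0.32 beside -0.01 over all genes. In vehicle cells 7 of the same 31 fell and 4 rose, with a median of -0.01, beside backgrounds of 1.46% lower and 0.599% higher among all genes. The 13 were RASD1, NFIL3, TXNIP, TSC22D3, MFSD2A, KLF6, KLF9, CDKN1A, BCL2L11, GADD45A, TNFAIP3, NFKBIA and GLUL, and the 2 were ZFP36 and the kinase gene SGK1. Without 1 library, 9 to 12 fell and 1 or 2 rose. Calls that needed both replicates were those of RASD1 (called in 0 of the 4 fits without 1 library), BCL2L11, GADD45A and GLUL (2 of 4 each) and NFKBIA and SGK1 (3 of 4 each). DDIT4, an inhibitor of mTOR signalling, was at 329 and 327 CPM in BRM014+Dex cells and at 458 and 468 CPM in DMSO+Dex cells, groups that do not overlap, but the effect did not pass the test (-0.50 ± 0.215, adjusted p = 0.448). FKBP5, a co-chaperone of the receptor, was at 137 and 141 CPM in BRM014+Dex cells and at 142 and 142 CPM in DMSO+Dex cells (-0.03 ± 0.0524, adjusted p = 0.929), and the effect of Dex itself on FKBP5 did not pass the test at 1 h.

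A second list came from libraries outside this experiment: 341 genes that 6 h of Dex raised over 2-fold in a separate panel of GM12878 cells, of which 303 were tested here. In Dex cells at 1 h BRM014 lowered 23 of the 303 (7.59%) and raised 1 (0.330%), ZFP36L2, beside 1.33% and 0.580% of all genes. The median of the 303 was -0.13, and 70.6% of them were below 0, beside 53.1% of all genes. In vehicle cells at 1 h BRM014 lowered 4 (1.32%) and raised 2 (0.660%), with a median of -0.04. These shares are near the 1.46% and 0.599% of all genes in vehicle cells. In Dex cells at 6 h BRM014 lowered 198 of the 303 (65.3%) and raised 6, with a median of -1.14, beside backgrounds of 20.6% lower and 17.1% higher. The count of 23 was 16 to 19 without 1 library.

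**Figure D4:**
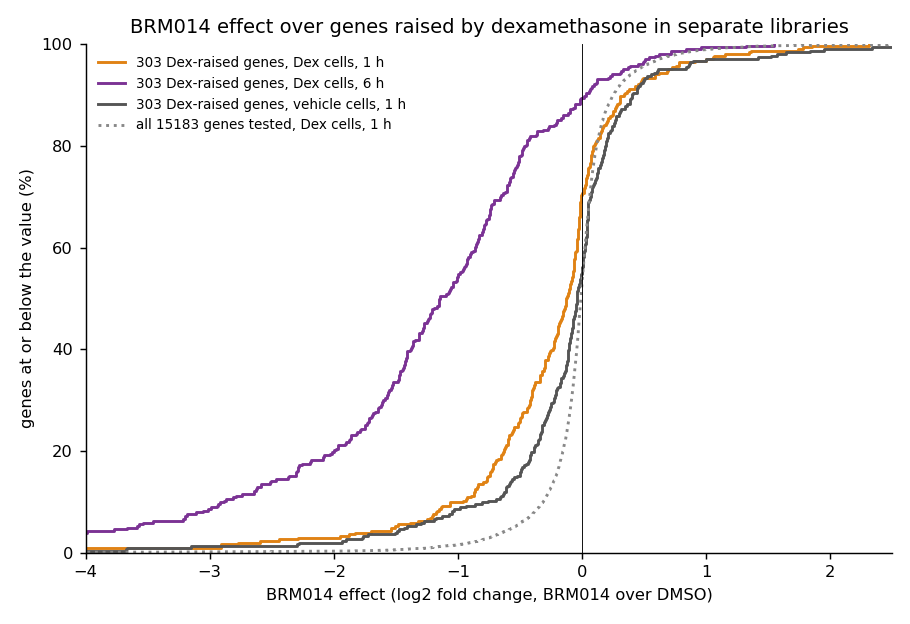
Share of genes (vertical axis, percent) at or below each BRM014 effect (horizontal axis, log2 fold change of BRM014 over DMSO) for the 303 tested genes that Dex raised over 2-fold in separate libraries, in Dex cells at 1 h, in Dex cells at 6 h and in vehicle cells at 1 h, and for all 15183 genes in Dex cells at 1 h. The 1 h curve of Dex cells lies left of the vehicle curve between about -1 and 0, and the 6 h curve lies left of both.

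Of the 8 panel genes with the largest Dex rise and at least 5 CPM here, 4 fell and 4 did not pass the test. TSC22D3, CXCR4 and OGFRL1 fell with BRM014 by 1.06 to 1.39 on the log2 scale. FSTL3, a secreted binder of activin, was at 99.9 and 100.2 CPM in BRM014+Dex cells and at 146 and 138 CPM in DMSO+Dex cells (-0.51 ± 0.0710, adjusted p = 2.69e-05). DDIT4 (-0.50), GRIN2A (-0.34 ± 0.127, adjusted p = 0.273), FKBP5 (-0.03) and SORT1 (-0.00 ± 0.0957, adjusted p = 0.997) were the others. In DMSO cells at 1 h Dex had raised DDIT4 by 2.43 ± 0.234, and its effects on GRIN2A, FKBP5 and SORT1 were 0.37 ± 0.128, 0.08 ± 0.0525 and 0.08 ± 0.0961, none of which passed the test (adjusted p = 0.555, 1.00 and 1.00). Other members that fell were RHOB, a small GTPase gene, at 10.4 and 10.7 CPM in BRM014+Dex cells and at 18.9 and 21.4 CPM in DMSO+Dex cells (-0.93 ± 0.109, adjusted p = 6.01e-07), and JDP2, a repressor of AP-1, at 12.7 and 12.7 CPM and at 19.8 and 20.8 CPM in the same order (-0.68 ± 0.123, adjusted p = 8.74e-04). RHOB and JDP2 were picked after their values were seen.

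Other genes fell with BRM014 both in Dex and in vehicle cells. TXNIP, an inhibitor of thioredoxin that is itself raised by glucocorticoids, had the smallest p of all. It was at 329 and 321 CPM in BRM014+Dex cells, against 816 and 833 CPM in DMSO+Dex cells (-1.34 ± 0.0493, adjusted p = 1.49e-18). In vehicle cells it was at 203 and 192 CPM with BRM014, against 440.1 and 411 CPM with DMSO (-1.11 ± 0.0502), and the difference of -0.23 ± 0.0696 did not pass the test (adjusted p = 0.784). With BRM014 both Dex libraries were below both DMSO+Veh libraries, although Dex raised TXNIP in each arm.

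CXCR4, the receptor of the homing chemokine CXCL12, was at 33.0 and 34.7 CPM in BRM014+Dex cells, against 89.1 and 88.1 CPM in DMSO+Dex cells (-1.39 ± 0.0823, adjusted p = 3.90e-13). In vehicle cells it was at 11.0 and 11.0 CPM with BRM014, against 19.3 and 18.0 CPM with DMSO (-0.76 ± 0.111), and the difference of -0.63 ± 0.139 missed the threshold (adjusted p = 0.0675). Its groups did not overlap in either setting.

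Falls of genes that Dex had not raised past the threshold were led by DEPP1, at 1.99 and 2.16 CPM in BRM014+Dex cells and at 14.5 and 15.8 CPM in DMSO+Dex cells (-2.86 ± 0.216, adjusted p = 9.85e-11). RASSF4 on the other strand covers 23% of its exon bases, and the sources used here do not give whether reads were counted by strand. LAX1, an adaptor that dampens antigen receptor signalling, was at 8.53 and 8.04 CPM in BRM014+Dex cells and at 23.6 and 22.9 CPM in DMSO+Dex cells (-1.49 ± 0.131). CD180, a Toll-like surface protein of B cells, was at 8.02 and 6.77 CPM in BRM014+Dex cells and at 20.6 and 21.5 CPM in DMSO+Dex cells (-1.52 ± 0.147). The stress gene IER3 fell by 1.43, the chemokine receptor CCR1 by 1.42, the cytokine gene IL1A by 1.24, the lysolipid transporter MFSD2A by 1.23 and the endosomal protein gene PLEKHF1 by 1.16, all on the log2 scale. In vehicle cells the effects on DEPP1, LAX1, CD180, IER3, CCR1, IL1A, MFSD2A and PLEKHF1 were between -2.54 and -0.93, each called, and each difference between Dex and vehicle cells had an adjusted p of 1.00.

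Among the rises, the nuclear receptor genes NR4A2 and NR4A3, both immediate early genes, were among the 12 largest. NR4A2 was at 8.79 and 8.10 CPM in BRM014+Dex cells, against 2.70 and 1.98 CPM in DMSO+Dex cells (1.85 ± 0.200, adjusted p = 1.32e-07). NR4A3 was at 9.56 and 11.4 CPM in BRM014+Dex cells, against 3.83 and 5.13 CPM in DMSO+Dex cells (1.22 ± 0.193, adjusted p = 1.17e-04). In vehicle cells they rose by 1.92 and 0.96. At 6 h neither effect in Dex cells passed the test, at 0.12 ± 0.232 and -0.55 ± 0.233 (adjusted p = 0.726 and 0.0643) in the same order of genes.

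ACKR3, a scavenging receptor for CXCL12, rose where CXCR4 fell: it was at 38.2 and 38.8 CPM in BRM014+Dex cells, against 11.2 and 10.3 CPM in DMSO+Dex cells (1.84 ± 0.134, adjusted p = 1.70e-10). CD69, an early activation antigen, was at 61.0 and 58.7 CPM in BRM014+Dex cells and at 23.6 and 24.7 CPM in DMSO+Dex cells (1.31 ± 0.102, adjusted p = 3.28e-10). TNFSF9, a costimulatory ligand, was at 77.3 and 71.0 CPM in BRM014+Dex cells and at 33.7 and 37.5 CPM in DMSO+Dex cells (1.06 ± 0.0793, adjusted p = 9.68e-11). ACKR3, CD69 and TNFSF9 also rose in vehicle cells, by 0.94, 0.68 and 0.58, and the differences of 0.90 ± 0.193, 0.63 ± 0.150 and 0.47 ± 0.110 did not pass the test (adjusted p = 0.0663, 0.153 and 0.0990). The kinase gene PIM1 rose by 0.96 ± 0.107 and the zinc finger gene ZNF436 by 1.02 ± 0.142. SOX18 (1.19 ± 0.266, adjusted p = 0.0108) and CCDC121 (1.37 ± 0.278, adjusted p = 0.00438) completed the 12 largest rises. Both were lost without some libraries, with an adjusted p of 0.281 for SOX18 without DMSO+Dex replicate 1 and 0.162 without BRM014+Dex replicate 2, and of 0.153 for CCDC121 without DMSO+Dex replicate 2 and 0.0642 without BRM014+Dex replicate 2. GPN1 on the other strand covers 12% of the exon bases of CCDC121.

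Many of the genes called in Dex cells were also called, in the same direction, without Dex. In vehicle cells at 1 h BRM014 raised 91 and lowered 221 genes (0.599% and 1.46%, or 2.05% together), and in IFNg cells it raised 94 and lowered 240 (0.619% and 1.58%, or 2.20% together). These pairs of groups share no library with the Dex cells. The rises of Dex and vehicle cells had 51 genes in common, 58.0% of the 88 and 56.0% of the 91. The falls had 122 in common, 60.4% of the 202 and 55.2% of the 221, and no gene was called in opposite directions. With IFNg cells 52 rises and 112 falls were shared, and 3 genes were called in opposite directions. TSC22D3 was 1 of these 3, with a small rise with BRM014 in IFNg cells (0.29, adjusted p = 0.0270 by edgeR). In all 3 settings 43 genes rose and 100 fell. The 202 genes that fell in Dex cells had a median of -0.51 there and of -0.36 in vehicle cells, and were chosen by their values in Dex cells. The 221 genes lowered in vehicle cells had a median of -0.36 in Dex cells and of -0.50 in vehicle cells.

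Immediate early genes were split. Of 37 tested, 11 rose (29.7%) and 8 fell (21.6%), beside 0.580% and 1.33% of all genes, with a median of 0.03. The rises were NR4A2, NR4A3, ZFP36, PIM1, GADD45B, EGR1, DUSP5, EGR2, IER2, BTG2 and DUSP4, from 1.85 down to 0.28, and the falls were IER3, RHOB, KLF6, TRIB1, IER5, EGR3, DUSP2 and KLF10, from -1.43 to -0.35. TRIB1, a pseudokinase gene, was at 47.4 and 46.8 CPM in BRM014+Dex cells and at 76.5 and 82.8 CPM in DMSO+Dex cells. BTG2, an antiproliferative gene, was at 149.8 and 154 CPM in BRM014+Dex cells and at 115 and 115 CPM in DMSO+Dex cells. Without 1 library 8 to 10 rose and 6 to 8 fell, and EGR1, EGR3 and IER2 (2 of the 4 fits each), DUSP4 and KLF10 (1 of 4 each) were the members not called throughout. In vehicle cells 9 of the 37 rose (24.3%) and 8 fell (21.6%), beside 0.599% and 1.46% of all genes.

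Of 25 p53 target genes 7 fell (28%) and 1 rose (4%), BTG2, beside 1.33% and 0.580% of all genes, with a median of -0.07. The falls were TP53INP1, the cell cycle inhibitor CDKN1A, the pro-apoptotic PMAIP1, GADD45A, the p53 ubiquitin ligase MDM2, AEN and TNFRSF10B, of which GADD45A and TNFRSF10B were each called in 2 of the 4 fits without 1 library. CDKN1A was at 116 and 109 CPM in BRM014+Dex cells, against 176 and 179 CPM in DMSO+Dex cells (-0.66 ± 0.0640, adjusted p = 1.57e-08). PMAIP1 was at 80.4 and 84.8 CPM in BRM014+Dex cells and at 129 and 126 CPM in DMSO+Dex cells (-0.62 ± 0.0864, adjusted p = 7.03e-05), while vehicle cells had 73.6 and 85.6 CPM with BRM014 and 84.6 and 79.8 CPM with DMSO, which overlap. The difference for PMAIP1 missed the threshold (-0.58 ± 0.124, adjusted p = 0.0787). In vehicle cells 7 p53 targets fell (28%) and 1 rose (4%), beside 1.46% and 0.599% of all genes. In the BCL2 family 3 of 14 fell (21.4%) and 0 rose (1 at an unadjusted p under 0.05, and 0 by DESeq2), beside 1.33% and 0.580% of all genes. Those that fell were PMAIP1, BMF (-0.56 ± 0.0565, adjusted p = 3.35e-08) and BCL2L11 (-0.57), all pro-apoptotic. In vehicle cells 1 of the 14 fell (7.14%) and 0 rose, beside 1.46% and 0.599% of all genes. The call of BCL2L11 was lost without DMSO+Dex replicate 1 (-0.51) or BRM014+Dex replicate 2 (-0.54).

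Among 39 NF-κB and inflammatory genes 5 fell (12.8%) and 2 rose (5.13%), beside 1.33% and 0.580% of all genes. The count of 5 was 10 without the filter on low counts, 8 in a fit of only the groups compared and 3 without BRM014+Dex replicate 2. The falls were IER3, CCL4, TNFAIP3, NFKBIA and TNFAIP8, and the rises BIRC3 and TNF. BIRC3, an inhibitor of apoptosis, was at 590.3 and 701 CPM in BRM014+Dex cells and at 415 and 385 CPM in DMSO+Dex cells (0.69 ± 0.0660, adjusted p = 8.87e-08). TNFAIP3, the A20 brake on NF-κB, was at 429.9 and 446 CPM in BRM014+Dex cells and at 592 and 594 CPM in DMSO+Dex cells (-0.44 ± 0.0575, adjusted p = 4.96e-06). CCL4 and TNFAIP8 were called in 2 of the 4 fits without 1 library, NFKBIA in 3 and TNF in 0. In vehicle cells 13 of the 39 fell (33.3%) and 1 rose (2.56%), beside 1.46% and 0.599% of all genes. Of 42 interferon-stimulated genes 6 fell in Dex cells (14.3%), beside 1.33% of all genes. None rose (0 also at an unadjusted p under 0.05, and 0 by DESeq2). In vehicle cells 4 of the 42 fell (9.52%) and in IFNg cells 14 (33.3%), beside 1.46% and 1.58% of all genes, and 0 rose in either. The 6 of Dex cells were led by IFIT3 at 88.9 and 82.1 CPM in BRM014+Dex cells and 141 and 139 CPM in DMSO+Dex cells (-0.71 ± 0.0672, adjusted p = 8.77e-09). The others were CMPK2, IFIT5, IFIT2, ISG20 and IRF9, and without BRM014+Dex replicate 2 only IFIT3 of the 6 was called. The count of 6 was 3 and 2 without DMSO+Dex replicate 1 and 2.

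For the lists that follow, 1.33% of all genes fell and 0.580% rose in Dex cells at 1 h. Among B cell identity genes 3 of 38 fell (7.89%), IRF4, IRF8 and RUNX3, by 0.24 to 0.51. Among plasma cell genes 3 of 13 fell (23.1%), PRDM1, IRF4 and TNFRSF17. PRDM1, which drives plasma cell differentiation, was at 45.9 and 49.0 CPM in BRM014+Dex cells, against 88.8 and 83.7 CPM in DMSO+Dex cells (-0.86 ± 0.0801, adjusted p = 6.26e-09). IRF4, IRF8 and RUNX3 were each called in 2 of the 4 fits without 1 library and TNFRSF17 in 0. In the KLF family 3 of 13 fell (23.1%): KLF6, KLF9 and KLF10, the last called in 1 of the 4 fits. In the homing receptor and RGS list 2 of 19 fell, CXCR4 and CXCR3, and 1 rose, S1PR1, where CXCR3 and S1PR1 were each called in 2 of the 4 fits. Without the filter on low counts 4 of that list fell in Dex cells, and in a fit of only the groups compared 3 fell and 2 rose. In vehicle cells 9 of the 19 fell (47.4%) and 1 rose (5.26%), beside 1.46% and 0.599% of all genes, with a median of -0.36. In IFNg cells 8 fell (42.1%), beside 1.58% of all genes. Single members passed the test in the heat shock list (DNAJB1, 0.37), the ATF4 and unfolded protein list (HERPUD1, -0.41) and the S phase list (E2F2, -0.42, called in 0 of the 4 fits). No member passed it by edgeR among 24 G2 and M phase, 18 MHC class II and 30 MYC and ribosome assembly genes, where 0, 1 and 2 had an unadjusted p under 0.05 and DESeq2 called 0 in each.

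**Figure D5:**
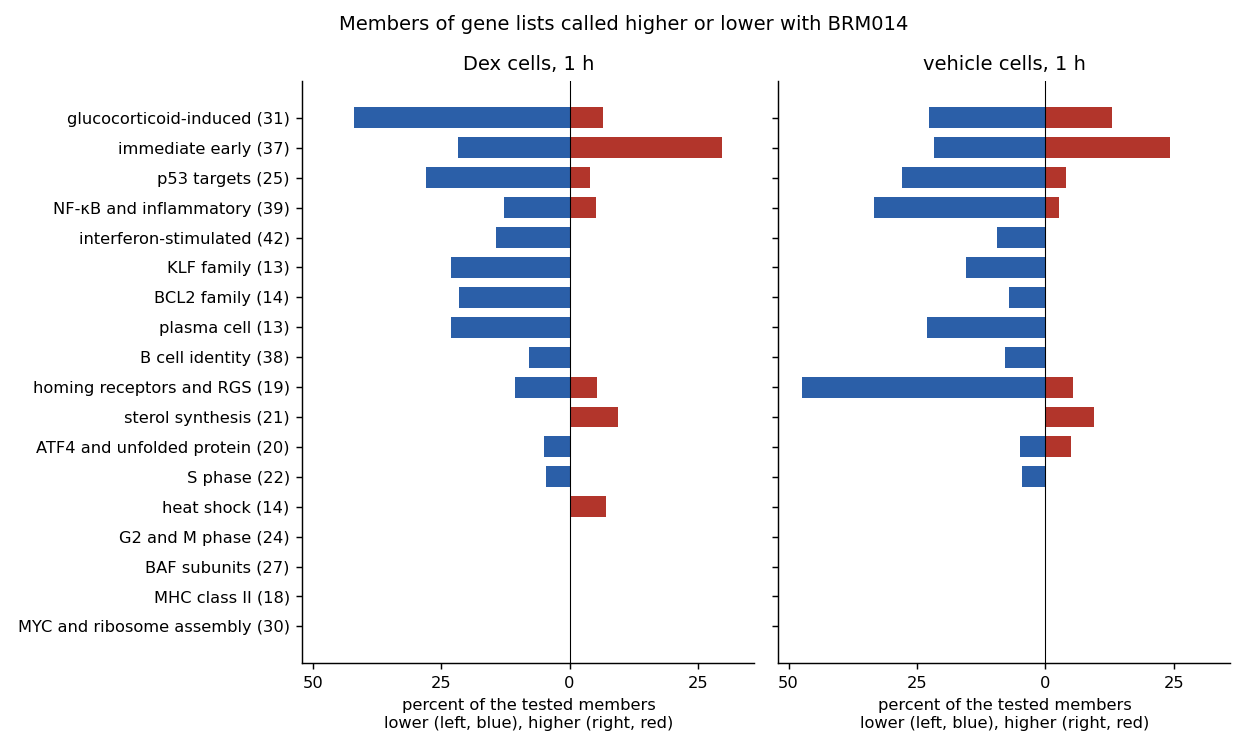
Percent of the tested members of each gene list (rows, number tested in brackets) called lower (blue, left of 0) or higher (red, right of 0) with BRM014, in Dex cells at 1 h (left panel) and in vehicle cells at 1 h (right panel). The glucocorticoid-induced list has 41.9% lower in Dex cells and 22.6% in vehicle cells, and immediate early genes are called in both directions in both.

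Against IFNg cells at 1 h, the effect of BRM014 differed for 25 genes (0.165%), 14 higher (0.0922%) and 11 lower (0.0724%) in the difference of Dex minus IFNg cells. The 4 most lowered were again NFIL3 (-1.64 ± 0.233), TSC22D3 (-1.62 ± 0.0961), KLF9 (-1.34 ± 0.211) and OGFRL1 (-1.28 ± 0.223). On the higher side stood TBX21, PDE4B, CD69 and ZNF697, of which CD69 alone passed the test in Dex cells. The phosphodiesterase gene PDE4B was at 14.6 and 15.7 CPM in BRM014+Dex cells and at 18.4 and 16.1 CPM in DMSO+Dex cells, but at 13.2 and 12.2 CPM in BRM014+IFNg cells and at 45.6 and 48.4 CPM in DMSO+IFNg cells. The call of TBX21, made in 6 of 8 fits that left out 1 library, was lost without BRM014+Dex replicate 1 (adjusted p = 0.0958) or BRM014+IFNg replicate 2 (adjusted p = 0.0628), as was that of OGFRL1 without BRM014+IFNg replicate 2 (adjusted p = 0.115).

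Between 1 h and 6 h of Dex the effect of BRM014 differed for 2989 genes (19.7%), 1162 higher (7.65%) and 1827 lower at 6 h. At 6 h BRM014 raised 2595 and lowered 3135 genes in Dex cells (17.1% and 20.6%, or 37.7% together). Of the 202 genes lower at 1 h 183 were lower at 6 h (90.6%) and 0 were higher, with a median of -0.51 at 1 h and of -0.91 at 6 h. Of the 88 genes higher at 1 h 55 were higher at 6 h (62.5%) and 8 were lower. EGR2 was among the reversed: at 6 h it was at 3.72 and 5.24 CPM in BRM014+Dex cells and at 21.6 and 22.6 CPM in DMSO+Dex cells. FKBP5, near-equal at 1 h, was at 231 and 222 CPM in BRM014+Dex cells and at 920.0 and 930.0 CPM in DMSO+Dex cells at 6 h (-2.03 ± 0.0506, adjusted p = 9.08e-24). For TSC22D3 the difference between times did not pass the test (0.11 ± 0.0819, adjusted p = 0.374), with 233 and 232 CPM in BRM014+Dex cells and 529.8 and 547 CPM in DMSO+Dex cells at 6 h.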

How the data were processed

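PolyA-enriched stranded RNA libraries were sequenced as paired reads, per the labels' protocols. The authors deposited estimated counts per gene (expected counts), made with STAR and RSEM on hg38 per the submitters' processing notes, without versions. The deposited TPM values were not tested. Here expected counts were rounded (4.20 to 4.81% of values were not whole), filtered with filterByExpr, scaled by TMM and fitted with edgeR 4.0.16 (R 4.3.3) over 24 libraries in 12 groups (15183 genes). The 24 libraries held 12.9 to 22.3 M counts. A panel of 15 other libraries gave the Dex list. Genes were placed by GENCODE 44, matched by ID without version (58.9% had the same version). IDs of no gene held 0 counts. Intervals and floors cover counting error only. DESeq2 1.42.0 and the other alternatives are given at the end. The fit was tested on simulated data of 14881 genes, with genes changed 1.5-, 2- and 4-fold. For the comparison in Dex cells it recovered 66.7%, 81.4% and 95.3% of them, with 8 false among 170 calls. For the difference to vehicle cells it recovered 47.0%, 67.1% and 89.1%, with 8 false among 143 calls. The counts were drawn from the spread that the fit itself had estimated, and genes of the lowest counts were left unchanged. The simulation thus does not check that spread or the recovery of such genes. Named genes are the 12 largest rises and falls with at least 5 CPM, 4 each way for each difference, up to 4 called members a list and 8 panel genes, plus those said to be picked later. Comparisons, members and lists were chosen with earlier results of these data known.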

Additional observations from a re-analysis of the deposited data

Results flagged for a closer look

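Each difference below passed edgeR's test of the difference itself between effects of BRM014 in separate settings. Between Dex and vehicle cells at 1 h 18 genes passed it. The differences, as Dex minus vehicle on the log2 scale, were -1.65 for NFIL3, -1.53 for TSC22D3, -1.25 for OGFRL1, -1.05 for KLF9, -0.78 for ARRDC3, -0.63 for ZFP36L2, -0.62 for PER1, -0.57 for SMIM3, -0.56 for DUSP2, -0.55 for KLF6, -0.46 for SERTAD2 and -0.39 for FBXW7. On the other side they were 0.42 for GADD45B, 0.54 for GPR183, 0.60 for SOX9, 0.62 for ZFP36, 0.62 for EGR2 and 1.49 for DNAJB4.

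Between Dex and IFNg cells at 1 h 25 genes passed it, among them NFIL3 at -1.64, TSC22D3 at -1.62, KLF9 at -1.34, OGFRL1 at -1.28, ZNF697 at 1.37, CD69 at 1.58, PDE4B at 1.71 and TBX21 at 2.16, as Dex minus IFNg.

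Between 6 h and 1 h of Dex 2989 genes passed it. The lymphocyte surface receptor gene LY9 had a difference of -3.54 as 6 h minus 1 h, the chemokine gene CCL4 of -4.29 and VSTM2L of -3.44, while ZNF341 had 1.99, ZMYM1 2.49 and AMN1 2.64. FPGT-TNNI3K, a readthrough gene that shares its exons with FPGT and TNNI3K and is uncertain for that, had 2.37. TLR9, a sensor of unmethylated DNA, had a fitted difference of -8.98, which is no bound since both BRM014+Dex libraries at 6 h were at 0 counts, against 94 and 91 counts in DMSO+Dex cells. At 3 counts over the group TLR9 was at least 64.0-fold lower at 6 h. Another gene entry, ENSG00000173366, shares the exon bases of TLR9.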

How the results depend on the processing

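Leaving out each library in turn gave 39 to 58 genes higher and 112 to 125 lower in Dex cells at 1 h, 8 to 15 genes for the difference to vehicle cells, 149 to 203 for vehicle cells, 186 to 207 for IFNg cells and a panel median of -0.16 to -0.13. It gave 18 to 25 genes for the difference to IFNg cells, 2222 to 2750 for that between times and 4256 to 4649 for Dex cells at 6 h. Without the filter on low counts the difference to vehicle cells had 38 genes and that to IFNg cells 60, and a fit of only the groups compared gave 47 for IFNg. The cause was not tested. DESeq2's Wald test gave 62 higher and 151 lower genes, and 18, 34 and 2349 for the differences to vehicle cells, to IFNg cells and between times. Of 1464 values of single genes under an alternative, 1317 kept direction and side of the threshold, 145 lost the call, 2 gained it and 0 reversed. Same-numbered replicates of BRM014+Dex and DMSO+Dex cells deviated with r = -0.16 over 10776 genes, where the 66 pairs of groups ranged from -0.26 to 0.31. The labels do not say that a number marks a shared culture or day, and the samples were not treated as paired. With the replicate number as a block there were 91 higher, 207 lower and 19, 30 and 3045 genes for the differences to vehicle cells, to IFNg cells and between times, 316, 342 and 5778 in vehicle, IFNg and 6 h Dex cells, and a panel median of -0.12.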

Other observations

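Chemokine receptors steer lymphocyte migration. Of 15 tested chemokine receptor genes 6 fell in Dex cells at 1 h (CCR2, CXCR4, CCR1, CCR9, CCR4 and CXCR3) and 1 rose (ACKR3), beside 1.33% lower and 0.580% higher over all genes, and 8 did not pass the test. Their median was -0.69 on the log2 scale beside -0.01 over all genes. In vehicle cells 7 fell and 1 rose, and in Dex cells at 6 h 12 fell and 1 rose, with medians of -0.72 and -1.52. Over all genes 1.46% fell and 0.599% rose in vehicle cells, and 20.6% fell and 17.1% rose in Dex cells at 6 h. In the 4 fits without 1 library CXCR4, CCR1 and ACKR3 were called each time, CCR4 3 times, CCR9 and CXCR3 2 times and CCR2 1 time. Of 4 lysophosphatidic acid receptor genes 3 fell in Dex cells (LPAR2, LPAR6 and LPAR5) and 1 in vehicle cells (LPAR5). LPAR2 was called in 2 of these 4 fits and LPAR5 and LPAR6 in 1 each. Both families were picked after their values were seen.

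Tested genes with a ZNF, ZFP, ZSCAN, ZKSCAN or ZBTB symbol numbered 577, and most did not pass the test. In Dex cells at 1 h 16 of them rose (2.77%) and 6 fell (1.04%), beside 0.580% and 1.33% of all genes. The rises include ZFP36, ZFP36L2, ZBTB9 and ZBTB5, and the falls ZBTB38 and ZKSCAN8. The median of the 577 was 0.02 beside -0.01 over all genes. In vehicle cells 17 rose (2.95%) and 4 fell (0.693%), beside 0.599% and 1.46% of all genes. In Dex cells at 6 h 192 rose (33.3%) and 42 fell (7.28%), beside 17.1% and 20.6% of all genes. This group, too, was picked after its values were seen.

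A few called genes rest on very few counts, and without 1 library HBEGF was called in 0 of the 4 fits, WNT16 in 3 and PEAK3 in 2. HBEGF had 0 and 0 counts in BRM014+Dex libraries, against 6 and 7 in DMSO+Dex libraries, at least 4.40-fold lower at 3 counts over the group. WNT16 had 0 and 1 counts in BRM014+Dex libraries, against 14 and 13 in DMSO+Dex libraries, a ratio of 0.0365 (95% exact interval 0.000891 to 0.221). PEAK3 had 1 and 0 counts in BRM014+Dex libraries, against 13 and 9 in DMSO+Dex libraries, a ratio of 0.0448 (0.00108 to 0.277). A rise of this kind was that of ENSG00000284969, a gene without a symbol. It had 8 and 23 counts in BRM014+Dex libraries, against 1 and 2 in DMSO+Dex libraries, a ratio of 10.2 (3.17 to 52.0). Its call did not hold in each fit without 1 library.

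Of 161 tested genes that Dex lowered over 2-fold in the panel, 8 fell (4.97%) and 3 rose (1.86%) with BRM014 in Dex cells at 1 h, beside 1.33% and 0.580% of all genes, and 150 did not pass the test. Their median was -0.18 beside -0.01 over all genes. In vehicle cells 21 of the 161 fell and 2 rose, where 1.46% of all genes fell and 0.599% rose, with a median of -0.29.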
